A study of Mus musculus with 6 samples.

Results

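This account covers 10 named genes of epithelial salt transport out of 32219 genes in a table of log values from mouse intestine. They are the peptides guanylin (Guca2a) and uroguanylin (Guca2b) and their receptor guanylyl cyclase C (Gucy2c), the chloride channel Cftr, the basolateral carriers Slc12a2 and Slc4a4, the anion exchangers Slc26a3 and Slc26a6, and the sodium-proton exchangers Slc9a2 and Slc9a3. They were taken as a list by symbol, and all 10 were found and passed the filter on low values. The table holds 3 libraries labelled KO and 3 labelled WT, from whole tissue whose cell type label names epithelium, immune cells and enteric neurons. The design text speaks of the duodenum. The sources used here do not name the knocked-out gene, any driver, the strain, the age or whether each library is 1 animal; the series title names GPR41 and DHX9. All p-values therefore measure only the spread between these libraries, which may be technical.

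Intestinal epithelium both absorbs and secretes salt, and water follows. Guanylin and uroguanylin are secreted into the gut lumen and activate guanylyl cyclase C on the brush border; the cyclic GMP that it makes leads to opening of the CFTR channel and to inhibition of sodium-proton exchange. Chloride for secretion enters the cell from the blood side through the sodium-potassium-chloride cotransporter NKCC1 (Slc12a2), and bicarbonate through the cotransporter NBCe1 (Slc4a4). Absorption of salt pairs the sodium-proton exchangers NHE2 (Slc9a2) and NHE3 (Slc9a3) with the chloride-bicarbonate exchangers DRA (Slc26a3) and PAT1 (Slc26a6) in the apical membrane.

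The promoters of 4 of these genes are shown, since Guca2a and Guca2b are neighbours on 1 chromosome, while Slc26a3 and Slc9a3, both apical exchangers, stood differently in the library KO 1. Each is the 250 bases upstream of the RefSeq transcript start, 5' to 3' on the gene's strand, from the GRCm38.p6 table of RefSeq, which matched 7 of the 10 genes by symbol. Capitals mark matches on either strand to GATAA (the GATA factor core, TTATC on the other strand), GTTAAT (an HNF1 half-site), CAAAGT (an HNF4 core) or TTTATG (a CDX core). The windows are chr4:119637482-119637731, plus strand, for Guca2a, chr4:119658946-119659195, minus strand, for Guca2b, chr12:31437969-31438218, plus strand, for Slc26a3 and chr13:74121163-74121412, plus strand, for Slc9a3. The Slc26a3 window lies inside the GENCODE span of that gene given below, which starts at 31390871. Its positions count from the RefSeq start.
Guca2a: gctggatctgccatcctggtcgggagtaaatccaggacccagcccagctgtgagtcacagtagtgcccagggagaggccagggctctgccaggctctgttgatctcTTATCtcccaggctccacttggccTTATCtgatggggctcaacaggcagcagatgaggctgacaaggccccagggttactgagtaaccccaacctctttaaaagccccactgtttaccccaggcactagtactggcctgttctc
Guca2b: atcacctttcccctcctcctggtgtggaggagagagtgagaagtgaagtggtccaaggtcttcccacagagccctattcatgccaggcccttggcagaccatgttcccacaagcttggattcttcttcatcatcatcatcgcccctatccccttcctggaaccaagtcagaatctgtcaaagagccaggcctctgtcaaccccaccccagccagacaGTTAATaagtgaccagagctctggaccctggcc
Slc26a3: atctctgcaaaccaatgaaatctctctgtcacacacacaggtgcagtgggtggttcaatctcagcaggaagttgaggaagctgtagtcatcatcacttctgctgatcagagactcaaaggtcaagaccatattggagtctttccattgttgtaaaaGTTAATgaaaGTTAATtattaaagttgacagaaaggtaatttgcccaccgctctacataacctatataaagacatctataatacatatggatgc
Slc9a3: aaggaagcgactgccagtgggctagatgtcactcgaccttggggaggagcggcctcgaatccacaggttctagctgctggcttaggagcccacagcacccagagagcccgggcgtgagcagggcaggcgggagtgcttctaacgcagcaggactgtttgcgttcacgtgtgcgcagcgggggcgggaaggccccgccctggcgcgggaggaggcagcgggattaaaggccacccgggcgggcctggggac
Guca2a held 2 GATAA matches, starting at -144 and -120 counted from the transcript start, and 22.6% of 32851 mouse promoter windows of this length held at least 1. GTTAAT stood at -33 in Guca2b and at -94 and -84 in Slc26a3, and 6.43% of windows held it. None of the 4 motifs was found in the Slc9a3 window, which was 67.6% G and C, against 38.8% for Slc26a3. CAAAGT (12.6% of windows) and TTTATG (10.8%) were found in none of the 4 windows. No matches overlapped.

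KO 1 needs separate handling. It listed values for 4 of the 10 genes, Slc26a3, Slc9a2, Slc9a3 and Slc12a2, and listed 0 for the other 6, which lie on chromosomes where it lists 0 for every gene that averages above 1 elsewhere. Those zeros were treated as missing. On the chromosomes that it covers its values ran higher by a factor of 2.12 on the linear scale, so they were divided by that factor and are called rescaled. The main comparison is KO 2 and KO 3 against WT 1, WT 2 and WT 3. The 5 libraries listed 22061 to 22768 genes above 0 and KO 1 listed 9729, and the depth of all 6 is unknown because the table holds no counts. All 6 columns carry the same sequencing lane label, and no other batch label is given. Levels are log2(abundance + 1); the log base and abundance unit are not stated, base 2 is assumed, and levels of different genes are not compared.

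No member passed the test between KO 2 and KO 3 and the WT libraries. Limma called 0 of 10 members after Benjamini-Hochberg adjustment over 22047 genes, and 0 of 10 had an unadjusted p under 0.05. Over all genes tested, 0.00454% passed the adjusted threshold of 0.05, which was 1 gene and no member, and 2.23% had an unadjusted p under 0.05. The fold was above 0 for 7 members and below 0 for 3, with a median log2 fold of 0.05, against 0.03 over all genes tested, of which 61.1% had a fold above 0. The smallest p of a member belonged to Slc12a2, with a limma adjusted p of 0.99998. In whole tissue, fewer cells of a type and less RNA per cell cannot be told apart.

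**Figure D1:**
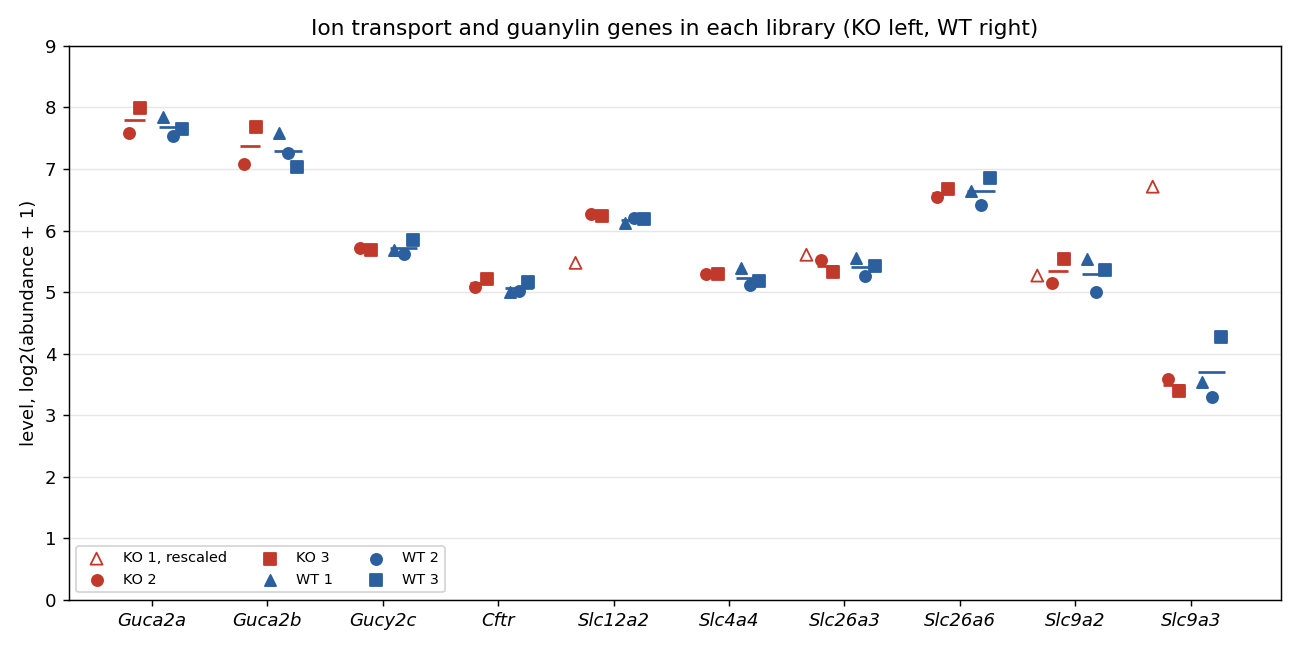
Level of each gene in log2(abundance + 1), with KO libraries in red to the left and WT libraries in blue to the right; short lines are the means of KO 2 and KO 3 and of the 3 WT libraries, and open triangles are KO 1 after rescaling, for the 4 genes it covers. KO 2 and KO 3 overlap the WT libraries for every gene but Slc12a2, and KO 1 stands apart for Slc9a3, at 6.71.

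Among the ligands, Guca2a (chromosome 4, 119637704 to 119639471, plus strand) had log2 levels of 7.59 in KO 2 and 7.99 in KO 3, against 7.85, 7.53 and 7.64 in WT 1, WT 2 and WT 3. The KO libraries spanned nearly the whole WT range and passed it at the upper end. Its log2 fold by limma was 0.12 ± 0.17 (SE), with a 95% interval of -0.30 to 0.53. Guca2b (chromosome 4, 119656607 to 119658954, minus strand) had log2 levels of 7.07 and 7.68 in KO 2 and KO 3, against 7.59, 7.26 and 7.03 in WT 1, WT 2 and WT 3. KO 3 and WT 1 were high and KO 2 and WT 3 low, so the spread lay within the groups. The log2 fold of Guca2b was 0.08 ± 0.24 (SE), with an interval of -0.49 to 0.66. Without KO 3 the folds of both ligands were below 0, at -0.09 for Guca2a and -0.22 for Guca2b, and without WT 3 that of Guca2b was -0.05.

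The ends of Guca2a and Guca2b face each other with 17135 bases between them. Both were highest in KO 3 and next highest in WT 1. The difference of their log2 levels, Guca2a minus Guca2b, was 0.52 in KO 2 and 0.31 in KO 3, against 0.26, 0.28 and 0.61 in WT 1, WT 2 and WT 3. The difference was largest in 1 library of each group, KO 2 and WT 3, and both of these were low for Guca2b. Over the 5 libraries Guca2b had a range of 0.65 log2 units, wider than that of 90.5% of the 189 genes within 0.5 log2 units of its mean, and Guca2a had a range of 0.46, wider than that of 70.5% of 129 such genes.

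The receptor Gucy2c (chromosome 6, 136697284 to 136781765, minus strand) varied less than its ligands. It had log2 levels of 5.72 and 5.69 in KO 2 and KO 3, against 5.69, 5.61 and 5.84 in WT 1, WT 2 and WT 3. Both KO libraries lay inside the WT range. Its log2 fold was -0.01 ± 0.10 (SE), with an interval of -0.25 to 0.22, and turned to 0.05 without WT 3. Its range of 0.23 was wider than that of 30.4% of 1043 genes of like level.

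Cftr (chromosome 6, 18170687 to 18322768, plus strand), the apical channel for chloride and bicarbonate, had log2 levels of 5.08 and 5.21 in KO 2 and KO 3, against 5.01, 5.02 and 5.17 in WT 1, WT 2 and WT 3. KO 3 was the highest library and KO 2 lay between WT 2 and WT 3. The log2 fold was 0.08 ± 0.09 (SE), with an interval of -0.14 to 0.31, which on the linear scale of abundance plus 1 is 0.904 to 1.24 times the WT level. Exons of Cftr overlap those of Gm15592 on the opposite strand, listed at 2.02 to 2.83, and since no strand setting for counting is given their reads cannot be told apart.

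Of the basolateral carriers, Slc12a2 (chromosome 18, 57878678 to 57946821, plus strand) was the tightest of the 10 genes, with a range of 0.15 over the 5 libraries. It had log2 levels of 6.27 and 6.24 in KO 2 and KO 3, against 6.12, 6.21 and 6.19 in WT 1, WT 2 and WT 3. Both KO libraries lay above all 3 WT libraries, and this was the sole member whose groups did not overlap. Over all genes tested, 9.82% had both KO libraries above the WT libraries and 3.77% had both below, so 1 of 10 is near the background. The group means were 6.26 ± 0.02 in KO (SD, n = 2) and 6.17 ± 0.05 in WT (SD, n = 3), a log2 fold of 0.08 ± 0.08 (SE) with an interval of -0.11 to 0.28.

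Slc4a4 (chromosome 5, 88886818 to 89239653, plus strand) had log2 levels of 5.29 in both KO 2 and KO 3, against 5.40, 5.11 and 5.18 in WT 1, WT 2 and WT 3. The KO libraries lay between WT 1 and the other WT libraries. Its log2 fold was 0.06 ± 0.11 (SE), with an interval of -0.20 to 0.32.

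**Figure D2:**
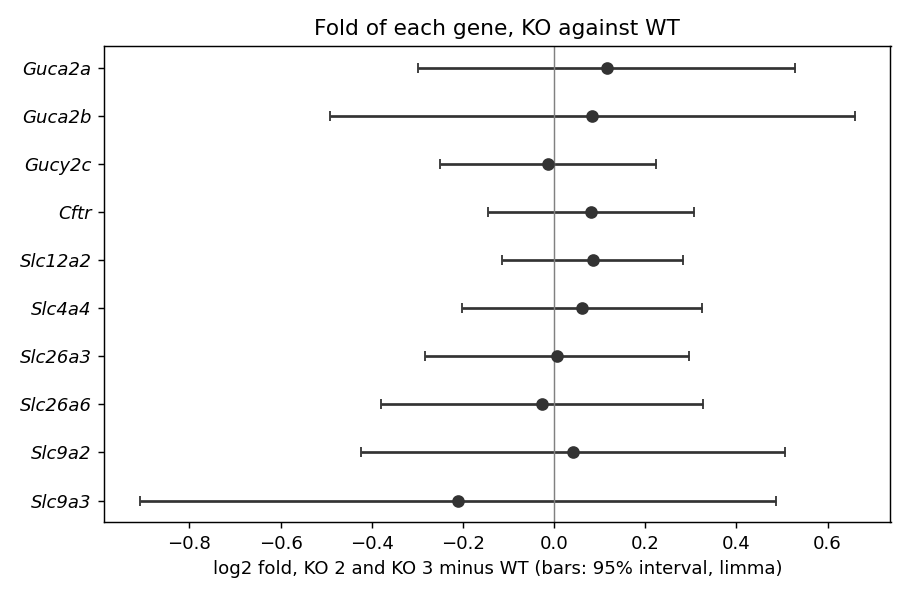
Log2 fold of each of the 10 genes, KO 2 and KO 3 minus WT (points), with 95% intervals from limma (bars). Every interval crosses 0; the narrowest belongs to Slc12a2 (-0.11 to 0.28) and the widest to Slc9a3 (-0.91 to 0.49).

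The apical anion exchangers showed no separation of the groups. Slc26a3 (chromosome 12, 31390871 to 31473917, plus strand) had log2 levels of 5.51 and 5.33 in KO 2 and KO 3, against 5.56, 5.26 and 5.43 in WT 1, WT 2 and WT 3. The KO libraries lay inside the WT range, and the log2 fold was 0.01 ± 0.12 (SE), with an interval of -0.28 to 0.30. Slc26a6 (chromosome 9, 108853283 to 108913049, plus strand) had log2 levels of 6.55 and 6.68 in KO 2 and KO 3, against 6.64, 6.42 and 6.86 in WT 1, WT 2 and WT 3. Here too the KO libraries lay inside the WT range, and the log2 fold was -0.03 ± 0.14 (SE), over an interval of -0.38 to 0.33. The fold of Slc26a6 was above 0 without KO 2 (0.04) and without WT 3 (0.08), and that of Slc26a3 was below 0 without KO 2 (-0.09).

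The sodium-proton exchangers spread more widely. Slc9a2 (chromosome 1, 40680574 to 40769273, plus strand) had log2 levels of 5.14 and 5.53 in KO 2 and KO 3, against 5.54, 5.0 and 5.35 in WT 1, WT 2 and WT 3. KO 3 and WT 1 were high and WT 2 low, and the log2 fold was 0.04 ± 0.19 (SE), with an interval of -0.42 to 0.51, and -0.15 without KO 3. Slc9a3 (chromosome 13, 74121457 to 74169442, plus strand) had log2 levels of 3.58 and 3.40 in KO 2 and KO 3, against 3.54, 3.29 and 4.27 in WT 1, WT 2 and WT 3. WT 3 stood 0.69 above the highest of the other 4 libraries, which lay between 3.29 and 3.58.

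The log2 fold of Slc9a3 was -0.21 ± 0.29 (SE), with an interval of -0.91 to 0.49, and it turned to 0.08 without WT 3. Its range of 0.98 was wider than that of 97.2% of 3377 genes of like level. The genes whose centred profiles lay closest to that of Slc9a3 over these 5 libraries, among 11024 genes at or above the median level, were Duox2, Sdf2l1 and Slc5a9, at Euclidean distances of 0.20, 0.21 and 0.25 log2 units, where a flat profile lies at 0.77. Duox2, an oxidase that makes hydrogen peroxide at the epithelial surface, stood at 6.53 and 6.55 in KO 2 and KO 3, against 6.50, 6.36 and 7.18 in WT 1, WT 2 and WT 3. Car1, a carbonic anhydrase of colonic epithelium, stood at 3.37 and 3.57 in KO 2 and KO 3, against 3.88, 4.11 and 6.07 in WT 1, WT 2 and WT 3. WT 3 was the high library for all of these. For the 3 nearest profiles the choice by likeness to Slc9a3 fixed this in advance, and Car1 was named after its values were seen. The part of WT 3 in the fold of Slc9a3 was not tested.

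For Slc12a2, the member with the smallest p, the closest profiles were those of Lamtor1, Mad1l1 and Insig1, at distances of 0.02, 0.03 and 0.03, where a flat profile lies at 0.12.

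WT 2 was the lowest of the 5 libraries for 7 of the 10 members, all but Cftr, Slc12a2 and Guca2b. Among all genes tested at or above the median level, WT 2 was lowest for 18.3%. The median deviation of the 10 members from the WT mean was -0.04 in KO 2 and 0.07 in KO 3, against 0.07, -0.13 and 0.04 in WT 1, WT 2 and WT 3. The 12 enterocyte markers, all present, had a summed log2 level of 11.05 and 11.49 in KO 2 and KO 3, against 11.37, 10.96 and 11.18 in WT 1, WT 2 and WT 3. WT 2 was lowest there as well, though Alpi, Apoa1, Apoa4 and Fabp1 were each not lowest in WT 2. The 6 fibroblast markers summed to 9.01 and 9.20 in KO 2 and KO 3. In WT 1, WT 2 and WT 3 they summed to 9.13, 9.53 and 9.28. That sum was highest in WT 2. The sum of the 7 Paneth markers was 11.30 in WT 2, close to 11.27 in WT 1 and 11.26 in KO 2. No Paneth marker was by itself highest in WT 2. The goblet and pan-epithelial sums were lowest in WT 2, at 11.97 and 10.21. The sum of the 8 housekeeping genes was lowest in WT 2, at 10.97 against 11.06 to 11.11 elsewhere. The part of the tissue make-up in the member levels was not tested. Without WT 2 the log2 folds of Slc26a3 and Slc9a2 turned to -0.07 and -0.11.

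The machinery around these transporters was examined in 5 lists. Of 68 genes in the table, 61 passed the filter; by limma 0 were called and 0 had an unadjusted p under 0.05, with 42 folds above 0 and 19 below and a median log2 fold of 0.03, beside 0.03 over all genes tested. In 5 of the 61 both KO libraries lay above the WT libraries and in 0 both lay below, near the background of 9.82% and 3.77%. Kcne2, Best2 and Bsnd were listed at 0 in all 5 libraries.

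Cyclic nucleotide signalling, which links guanylyl cyclase C and the cyclic AMP pathway to CFTR, had 8 of 14 folds above 0 and a median of 0.01. The 4 genes with the smallest p were Prkaca, Pde5a, Prkg2 and Pde4d. Prkaca, a catalytic subunit of protein kinase A, had a log2 fold of 0.08 and Pde5a, the cyclic GMP phosphodiesterase, one of -0.08. Prkg2, the cyclic GMP-dependent kinase of the brush border, had 0.14 and Pde4d 0.11. Prkg2 had log2 levels of 3.30 and 3.69 in KO 2 and KO 3, against 3.28, 3.29 and 3.49 in WT 1, WT 2 and WT 3, so the groups overlapped.

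Scaffolds and kinases, which anchor and regulate CFTR and the exchangers, had 9 of 12 folds above 0 and a median of 0.11. The lowest p values belonged to Lpar2 (0.11), Sgk1 (0.65), a kinase that raises sodium transport, Pdzk1 (0.41), a PDZ protein that binds brush border carriers, and Oxsr1 (0.11), a kinase that activates Slc12a2. KO 3 alone was high for Sgk1, with log2 levels of 4.03 and 5.72 in KO 2 and KO 3, against 4.0, 4.57 and 4.10 in WT 1, WT 2 and WT 3. Pdzk1 likewise was high in KO 3, at 3.06 and 3.97 in KO 2 and KO 3, against 3.50, 2.78 and 3.04 in WT 1, WT 2 and WT 3.

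Potassium channels and the sodium pump, which set the driving force for chloride exit and sodium entry, had 5 of 7 folds above 0 and a median of 0.03. Kcnq1, the pore of the basolateral potassium channel that works with Kcne3, had log2 levels of 5.13 and 5.27 in KO 2 and KO 3, against 5.04, 5.09 and 4.80 in WT 1, WT 2 and WT 3. Its groups did not overlap, and the log2 fold was 0.22 ± 0.12 (SE) at a limma adjusted p of 0.99998. Its partner Kcne3 had a log2 fold of -0.08, Kcnn4, another potassium channel, 0.07, and Atp1b3, a subunit of the sodium pump, 0.03.

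Other carriers of chloride, bicarbonate and sodium had 15 of 23 folds above 0 and a median of 0.02. Slc9a8, the apical exchanger NHE8, had log2 levels of 4.33 and 4.65 in KO 2 and KO 3, against 4.23, 4.30 and 4.19 in WT 1, WT 2 and WT 3, for a log2 fold of 0.25 ± 0.12 (SE) at a limma adjusted p of 0.99998. The other 3 with the smallest p were Ano6 (0.20), a membrane scramblase and ion channel, Slc4a1 (-0.11) and Clcn3 (-0.13). Slc4a1 is the anion exchanger of red cells. All 5 aquaporins kept had folds above 0, where 61.1% of all genes tested had a fold above 0. They ran from 0.09 for Aqp11 to 0.51 for Aqp7, with Aqp1 at 0.24 and Aqp3 at 0.12. KO 3 alone was high for Aqp7, at 2.51, against 1.51 in KO 2 and 1.42, 1.42 and 1.64 in WT 1, WT 2 and WT 3. Aqp3 was listed low, at 0.37 to 0.79. By limma 0 of the 5 aquaporins had an unadjusted p under 0.05. Of the 5, 0 had groups that did not overlap, against 13.6% of all genes tested.

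**Figure D3:**
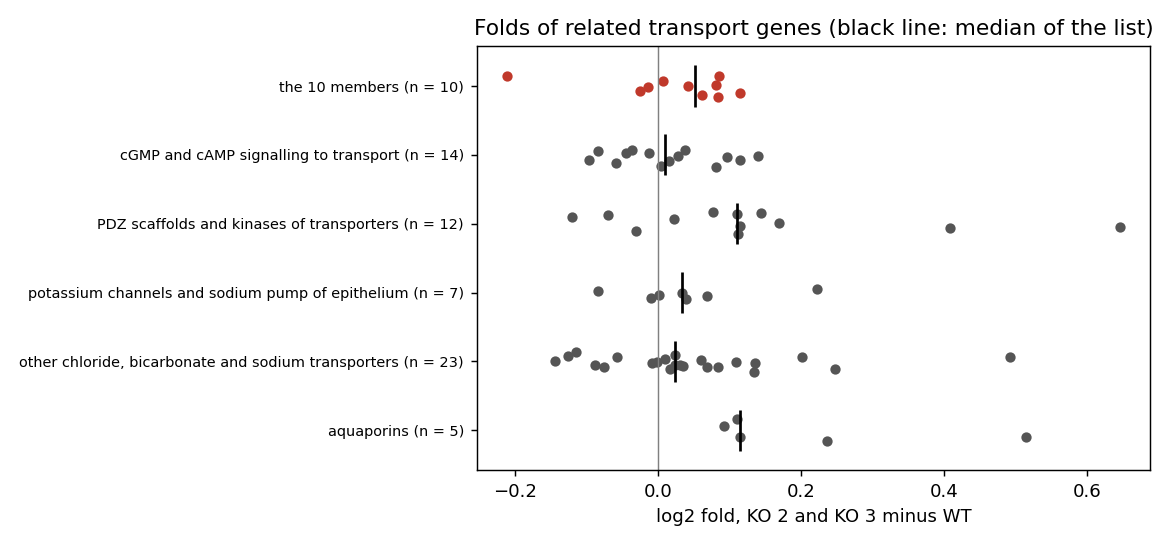
Log2 fold, KO 2 and KO 3 minus WT, of each gene kept in the 10-gene list (red) and in the 5 lists of related genes (grey), with black lines at the list medians (vertical jitter is for display). The medians lie between 0.01 and 0.12, and the genes farthest to the right are Sgk1, Aqp7 and Clca4a.

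Of the 4 members that KO 1 covers, Slc9a3 alone stood at least 1 log2 unit outside the other 5 libraries. With 1 such library there is no test, and the values describe that library. Slc9a3 stood at 7.79 as deposited and 6.71 rescaled, against 3.29 to 4.27 in the other 5 libraries, which put it 3.01 log2 units above the WT mean, or 8.07 times on the scale of abundance plus 1. Its excess over the highest of the other 5 libraries, 2.44, was rank 11 among 9946 covered genes kept. Of these genes, 0.975% stood at least 1 log2 unit above the other 5 and 3.55% at least 1 below.

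Slc12a2 went the other way in KO 1, at 6.54 as deposited and 5.47 rescaled, against 6.12 to 6.27 in the other 5 libraries. That is 0.64 below the lowest of them, and 39.7% of covered genes lay below the other 5 by some amount. Slc26a3, at 5.61 rescaled, was 0.05 above the highest of the other 5, where 18.2% of covered genes lay above. With the factor taken from covered genes at 6 or more, Slc26a3 lay inside their range, 0.14 above the WT mean in place of 0.19. Slc9a2, at 5.27 rescaled, lay within their range.

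With KO 1 rescaled, 3 KO against 3 WT libraries could be compared over the 9946 covered genes. Limma called 0 of 9946 genes (0%), with 185 (1.86%) at an unadjusted p under 0.05, and 0 of the 4 members passed either threshold. The groups overlapped for all 4 members, while 6.23% of covered genes had groups that did not overlap. Slc9a3 averaged 4.56 ± 1.86 in KO and 3.70 ± 0.51 in WT (SD, n = 3 each), a log2 fold of 0.86 ± 0.88 (SE) with an interval of -1.25 to 2.98 and a limma adjusted p of 0.9996. The sign turned to -0.21 without KO 1. Slc12a2 had a log2 fold of -0.18 ± 0.22 (SE), which was 0.08 without KO 1, Slc26a3 one of 0.07 ± 0.12 and Slc9a2 one of 0.02 ± 0.17.

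Among the other pathway genes, 20 were covered and kept. Of these, Ano6 alone stood at least 1 log2 unit above the other 5 libraries in KO 1, at 6.93 rescaled against 4.95 to 5.41. Vip alone stood at least 1 below, at 1.12 against 2.87 to 3.85. Of all covered genes kept, 0.975% stood at least 1 above the other 5 libraries and 3.55% at least 1 below. Vip encodes the neuropeptide that raises cyclic AMP in enterocytes; it and the next gene were chosen after their values were seen. Slc9a3r1, the scaffold NHERF1 that binds both Slc9a3 and CFTR, stood at 8.06 rescaled against 6.86 to 7.66. Of all covered genes, 18.2% lay above the other 5 libraries in KO 1. Slc9a3r1 lay 0.88 above the WT mean, and the 4 covered enterocyte markers had a median of 0.71 above theirs.

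Markers of gut position and of cell types moved in KO 1 as well. Of 5 covered markers of proximal small intestine, 3 stood at least 1 log2 unit above the other 5 libraries, against 0.975% of all covered genes. Among these 3 markers was Gata4, at 5.19 rescaled against 0.43 to 0.63. In the same list 1 marker, Slc40a1, stood at least 1 below, at 5.15 against 6.30 to 6.67. Of 4 covered ileal markers, 2 stood at least 1 below, against 3.55% of all covered genes. Of these 2 markers, Fabp6 stood at 3.91 against 8.16 to 8.76. Slc51a and Nr1h4 stood less than 1 below, at 6.54 against 6.86 to 7.21 and at 4.85 against 5.62 to 5.93. The design text names the duodenum. The other 5 libraries had the ileal gene Fabp6 at 8.16 or more and the proximal factor Gata4 at 0.63 or less. They also had Slc40a1, of the proximal list, at 6.30 or more. The 4 covered enterocyte markers summed to a log2 level of 10.06 in KO 1 against 8.98 to 9.44, and the 2 covered smooth muscle markers to 4.14 against 8.12 to 8.59. The part of position and of tissue make-up in the Slc9a3 and Slc12a2 values of KO 1 was not tested, and with 1 library genotype, position and tissue make-up cannot be told apart.

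**Figure D4:**
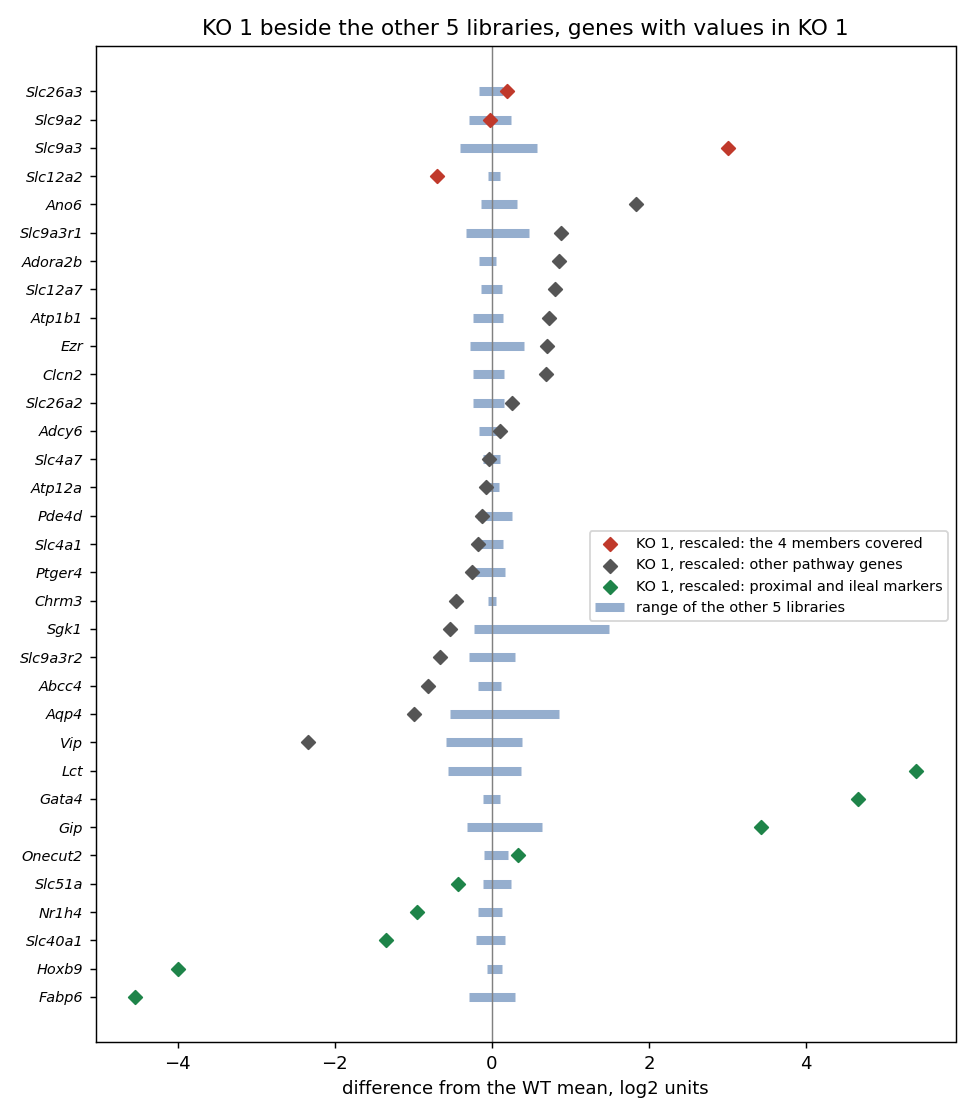
Difference from the WT mean in log2 units for genes that KO 1 covers: diamonds are KO 1 after rescaling (red, the 4 members; grey, related transport genes; green, markers of proximal small intestine and ileum), and blue bars span the other 5 libraries. Slc9a3 lies 3.01 above the WT mean, and Slc12a2 lies 0.70 below it.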

How the data were processed

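RNA was measured in 6 libraries (3 KO, 3 WT) of polyadenylated RNA, made with a stranded kit for low input, per the labels' protocols. The authors deposited 1 table of log values, taken here as log2(abundance + 1). Reads were placed on mm10, per the submitters' processing notes; the sources used here do not give the aligner, counting tool, strand setting, abundance unit, log base or added constant. Under natural logs every log2 fold of the main comparison would grow by 1 constant factor. The KO 1 factor, values that use it, linear folds, summed levels and folds under other added constants would not change by that factor. Of 32245 rows, 26 with a date in place of a symbol were left out. GENCODE M21 (GRCm38) gave positions.

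A gene was kept if at least 3 of the 5 libraries without KO 1 listed it above 0 (22047 genes). Limma 3.58.1 in R 4.3.3 compared KO with WT, with a variance trend and group as the sole term, 2-sided, with Benjamini-Hochberg adjustment over all genes kept. The test was tried on simulated data. The factor for KO 1, 2.12, is the median, over 2160 covered genes at 4 or more, of its linear value divided by the mean of the other 5. Summed levels are log2 of the sum of linear values plus 1. The text names all members, up to 4 genes with the smallest p per related list, and the 3 nearest profiles of 2 members; other names are said to be chosen later, and Clca4a, Car1 and the marker genes were also named after their values were seen. The members and lists were chosen with earlier results of these data known. Depth is unknown. Alternatives were other normalizations, filters, added constants, variance model, replicate block, library sets and factors for KO 1.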

Additional observations from a re-analysis of the deposited data

How the results depend on the processing

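No member was called under any alternative tried, and the lowest adjusted p of a member by limma was 0.717, with all 6 libraries as deposited. Of 150 member folds under alternatives to the comparison without KO 1, 128 kept their sign and 22 turned. With all 6 libraries as deposited, where the listed zeros of KO 1 enter, the log2 folds were -1.63 for Cftr, -1.70 for Slc4a4, -2.48 for Guca2a, -2.38 for Guca2b, -2.23 for Slc26a6, -1.91 for Gucy2c and 1.22 for Slc9a3. With KO 1 added after rescaling, and set to missing outside its covered part, Slc9a3 turned to 0.86 and Slc12a2 to -0.18. Median centring gave -0.050 for Slc26a3 and -0.015 for Slc9a2, and quantile normalization gave -0.0054 for Slc26a3. Over left-out libraries the folds ran from -0.086 to 0.32 for Guca2a, -0.22 to 0.39 for Guca2b, -0.065 to 0.051 for Gucy2c, -0.086 to 0.10 for Slc26a3, -0.14 to 0.084 for Slc26a6, -0.15 to 0.24 for Slc9a2, 0.017 to 0.15 for Cftr, 0.0023 to 0.15 for Slc4a4, 0.058 to 0.10 for Slc12a2 and -0.42 to 0.075 for Slc9a3; where 1 KO library remains, it is assumed to vary like the others. In the 3 against 3 comparison of covered genes, the ranges were -0.21 to 1.45 for Slc9a3, -0.31 to 0.085 for Slc12a2, -0.011 to 0.15 for Slc26a3 and -0.13 to 0.14 for Slc9a2, and quantile normalization gave -0.021 for Slc9a2. The 1 gene called over all genes fell to 0 with no filter, the stricter filter, an added constant of 0.1, the replicate block, all 6 libraries as deposited, and over left-out libraries (0 to 0).

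The cause of these changes was not tested. For KO 1 minus the WT mean, the values as deposited were 1.26 for Slc26a3, 1.04 for Slc9a2, 4.09 for Slc9a3 and 0.37 for Slc12a2, so the sign for Slc12a2 and Slc9a2 rests on the rescaling. Slc12a2 stood at -0.61 and -0.75 with factors from covered genes at 2 or more and at 6 or more, and Slc26a3 at 0.28 and 0.14. Samples with the same replicate number deviated together over covered genes with correlations of 0.23, 0.48 and 0.07 for numbers 1, 2 and 3. Without KO 1, over all genes kept, the values were 0.28 and 0.33 for numbers 2 and 3, where number 1 has no pair. With 2 KO libraries the deviations of KO 2 and KO 3 are exact opposites, so these 2 values are not separate evidence. Since 1 of 3 values over covered genes was under 0.1, the numbers were not taken as pairs, and pairing cannot be settled from these values. With the replicate block 0 genes and 0 members were called, and the member folds ran from -0.29 for Slc9a3 to 0.23 for Guca2b.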
